A study of Mus musculus with 3 samples.

Results

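The genes described here are 10 genes of protein folding and quality control in the endoplasmic reticulum (ER): Hspa5, Hsp90b1, Calr, Canx, Pdia3, Pdia4, Pdia6, Dnajb9, Sdf2l1 and Herpud1. They were chosen by name as ER chaperone and ER-associated degradation genes, with earlier results of these data known. They were looked up by symbol among the 41214 gene identifiers of the deposited counts. All 10 were found and all 10 passed the filter on low values, which kept the 11865 genes with at least 1 count per 1000000 gene counts (CPM) in at least 1 library. Poly(A) RNA was sequenced from exponentially growing mouse keratinocytes, the main cells of the epidermis, isolated from C57BL/6 mice and immortalised with SV40. The 3 libraries, 1 per genotype, were labelled ARPC4 ko, Nrf2-EGFP and wt. ARPC4 belongs to the Arp2/3 complex, the nucleator of branched actin networks, and Nrf2, encoded by Nfe2l2, is a transcription factor of the oxidative stress response. The title of the ARPC4 ko library also holds the word Cre and that of the Nrf2-EGFP library the word High, and neither the promoter of the Nrf2-EGFP construct nor the number of clones behind a line is given in the labels used here. With 1 library per genotype there was no replicate check and no test between genotypes. Each interval below is an exact 95% interval of the ratio of scaled counts, which covers counting error only and compares libraries, not genotypes.

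The ER folds and modifies the proteins that a cell secretes or places in its membranes. Its lumenal Hsp70 (Hspa5, also called BiP or Grp78) and Hsp90 (Hsp90b1, Grp94) hold unfolded chains, the lectins calreticulin and calnexin hold chains that carry N-glycans, and protein disulfide isomerases form and rearrange disulfide bonds. When unfolded protein builds up, the sensors Ire1, Atf6 and Perk switch on the unfolded protein response: Ire1 splices the mRNA of Xbp1, Atf6 is cleaved into a transcription factor, and Perk lowers translation and raises Atf4. Atf6 and spliced Xbp1 are known to act on chaperone genes through the ER stress response element, and Atf4 mainly on genes of amino acid supply and redox balance. Keratinocytes make large amounts of membrane and matrix adhesion proteins, which pass through the ER.

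The promoters of the 10 genes were read from RefSeq (GRCm38.p6, the build of mm10), as 300-base windows from 250 bases before to 50 after the annotated start, and each gene had 1 window. They are shown because Atf6 and spliced Xbp1 are known to act on chaperone genes through a shared promoter element. The ER stress response element, ERSE (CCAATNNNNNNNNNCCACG, either strand), occurred in the windows of Hspa5, Hsp90b1, Calr, Canx and Pdia6, 5 of 10 genes, with 2 sites in Hsp90b1. Over all 27025 genes with a window, 37 held it (0.137%). The related ERSE-II (ATTGGNCCACG, either strand) occurred in Herpud1 and in 12 genes of all (0.0444%). Every ERSE and ERSE-II match overlaps a CCAAT box by its own letters, and a CCAAT box (CCAAT, either strand) stood in all 10 windows, against 41.1% of all genes. The core of the unfolded protein response element (TGACGTGG, either strand) was found in none of the 10 windows and in 193 genes of all (0.714%). ERSE was defined from promoters of genes such as these, so the match is a description of the group and not independent evidence. The matched sites follow, in gene orientation, with the fixed letters of the motif in capitals and the spacer in lower case.
Hspa5: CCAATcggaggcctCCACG
Hsp90b1, distal site: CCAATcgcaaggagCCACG
Hsp90b1, proximal site: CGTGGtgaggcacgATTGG
Calr: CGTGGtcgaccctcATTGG
Canx: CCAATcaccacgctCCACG
Pdia6: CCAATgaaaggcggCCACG
Herpud1, ERSE-II: ATTGGgCCACG

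Counted from the start site, the Hspa5 site spans positions -65 to -47 (chr2:34772025-34772043, mm10, plus strand). The sites of Hsp90b1, a gene of the minus strand, span -212 to -194 (chr10:86705638-86705656) and -107 to -89 (chr10:86705533-86705551). The Calr site spans -162 to -144 (chr8:84847075-84847093, minus-strand gene), and the Canx site -145 to -127 (chr11:50325800-50325818, minus-strand gene). The Pdia6 site spans -98 to -80 (chr12:17266491-17266509, plus strand), and the shorter Herpud1 site -52 to -42 (chr8:94386377-94386387, plus strand). All of these lie upstream of the annotated start. Of the other ER genes listed for comparison, ERSE stood in the windows of Creld2, Dnajc3 and Ero1b among 44 further folding factors with a window, and of Derl3 and Syvn1 among 33 further factors of ER-associated degradation (ERAD). The whole windows of the 2 genes with the highest wt counts among the 10, Hspa5 (chr2:34771840-34772139, plus strand) and Hsp90b1 (chr10:86705395-86705694, minus strand), are given to show where the element sits, with ERSE letters in capitals.
Hspa5: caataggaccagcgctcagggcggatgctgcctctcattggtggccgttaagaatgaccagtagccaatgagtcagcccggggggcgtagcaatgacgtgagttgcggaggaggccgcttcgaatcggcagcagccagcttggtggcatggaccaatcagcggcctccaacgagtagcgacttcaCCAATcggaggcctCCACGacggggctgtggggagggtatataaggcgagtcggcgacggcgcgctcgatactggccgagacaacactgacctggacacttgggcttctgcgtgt
Hsp90b1: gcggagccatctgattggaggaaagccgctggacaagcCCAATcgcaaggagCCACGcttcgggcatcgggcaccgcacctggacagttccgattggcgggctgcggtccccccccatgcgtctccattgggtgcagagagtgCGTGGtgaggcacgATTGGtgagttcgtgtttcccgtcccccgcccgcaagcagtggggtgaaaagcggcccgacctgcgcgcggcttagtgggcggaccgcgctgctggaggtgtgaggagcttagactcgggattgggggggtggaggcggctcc

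**Figure D1:**
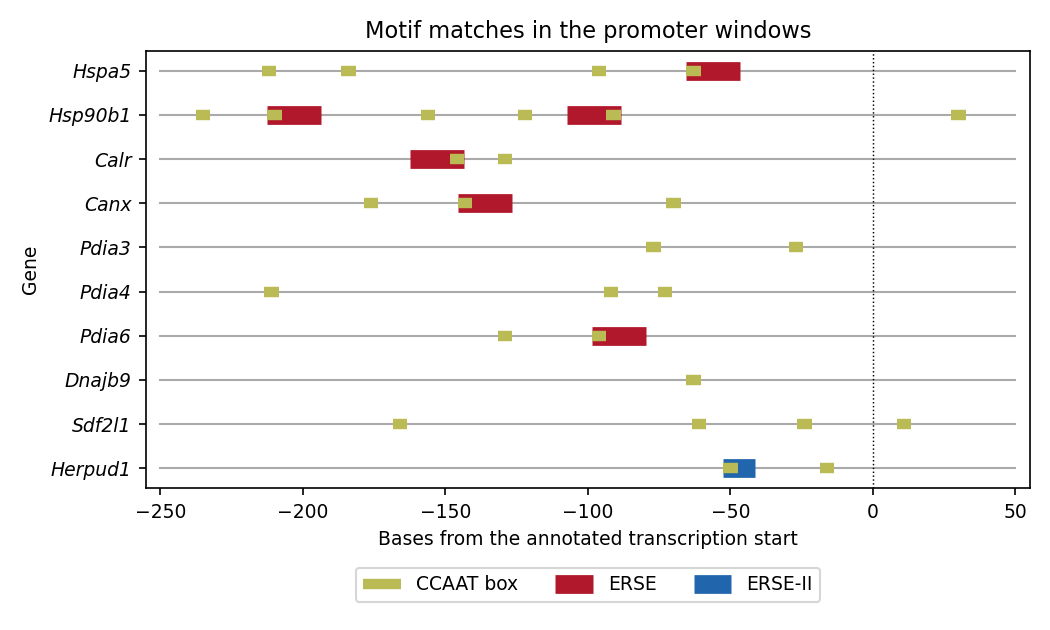
Motif matches in the promoter windows of the 10 genes, 1 line per gene. The horizontal axis is the distance in bases from the RefSeq transcription start, from 250 before to 50 after it. ERSE matches are seen in 5 genes, with 2 in Hsp90b1, and ERSE-II in Herpud1, all upstream of the start.

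The libraries held 23033863 (ARPC4 ko), 25723959 (Nrf2-EGFP) and 22924294 (wt) gene counts, and 16780 to 16921 genes with at least 1 count. Arpc4 had 61.0 CPM in ARPC4 ko, 98.4 CPM in Nrf2-EGFP and 94.2 CPM in wt, so the knocked-out gene was 1.54-fold lower (1.44 to 1.65) in ARPC4 ko than in wt and not absent. Nfe2l2 had 179.5, 166.4 and 224.7 CPM in the same order and was lowest in Nrf2-EGFP, a direction that goes against a plain reading of that label. The 3 libraries are therefore called below by their labels only. Of 10 keratinocyte markers, 9 passed the filter, and the summed level of the list was 14155 CPM in ARPC4 ko, 18776 CPM in Nrf2-EGFP and 24890 CPM in wt, led by Krt5 and Krt14, while Krt15 was at 0 in the first 2. Of 10 fibroblast and mesenchymal markers, 3 passed and 6 were at 0 in each library, and the summed level of the list was 839.9, 1540.1 and 529.1 CPM, almost all of it Fn1, which keratinocytes in culture also make. The summed markers of immune cells (1 of 8 passed, 7.20, 5.63 and 5.74 CPM), of melanocytes (1 of 7, 5.35, 2.17 and 3.47 CPM) and of endothelium (3 of 6, 54.1, 63.2 and 27.7 CPM) were low in all 3.

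Per kilobase of exon, which allows genes to be compared with each other, 5 of the 10 genes stood near the top of each library. Calr, the lumenal lectin chaperone, had a level of 278 CPM per kb in ARPC4 ko, 350 CPM per kb in Nrf2-EGFP and 333 CPM per kb in wt. Hsp90b1 had 214, 283 and 367 CPM per kb in the same order of libraries, and Pdia3, the oxidoreductase that works with the lectins, had 251, 290 and 273 CPM per kb. Calr therefore led the 10 genes in ARPC4 ko and Nrf2-EGFP, and Hsp90b1 led them in wt. Among the 11865 genes, Hsp90b1 ranked 103rd in ARPC4 ko, 82nd in Nrf2-EGFP and 57th in wt. Canx, the membrane-bound lectin, had 170, 227 and 219 CPM per kb, and Hspa5 had 161, 225 and 270 CPM per kb. The disulfide isomerases Pdia4 (74.5, 92.1 and 77.8 CPM per kb) and Pdia6 (62.4, 70.8 and 89.1 CPM per kb) were lower. The genes with the lowest levels were Herpud1 (18.6, 27.5 and 31.7 CPM per kb), a membrane scaffold of ERAD, Sdf2l1 (11.5, 13.2 and 19.2 CPM per kb), a partner of the Hspa5 co-chaperone Dnajb11, and Dnajb9 (4.50, 4.39 and 5.74 CPM per kb), a J-domain co-chaperone of Hspa5. The order of these 3 was the same in each library.

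The comparison of ARPC4 ko with wt asks which transcripts go with the ARPC4 ko label, under which Arpc4 mRNA was lower but present. All 10 genes had less mRNA in ARPC4 ko than in wt, except that Pdia4 lay slightly above wt when scaled to total gene counts. The lumenal Hsp70 and Hsp90, the ERAD scaffold Herpud1 and Sdf2l1 differed most, near 1.7-fold, and Pdia3 and Pdia4 least. Called against a 1.5-fold rule (log2 fold of CPM + 0.5 at or past log2 of 1.5, and a counting interval that excludes 1), Hspa5, Hsp90b1, Sdf2l1 and Herpud1 were lower, 4 of 10, and 0 of 10 were higher. Over all 11865 genes that rule called 6.24% lower and 10.8% higher. None of the 10 passed the 2-fold rule, which called 2.06% of all genes lower and 4.7% higher. In such libraries of bulk RNA, fewer cells that express a gene and less of its RNA per cell cannot be told apart.

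Hspa5 (ENSMUSG00000026864, chr2:34771970-34777547, plus strand) is the ER Hsp70 and the main sensor-binding chaperone. It had 681.6 CPM in ARPC4 ko, 951.1 CPM in Nrf2-EGFP and 1144 CPM in wt, from 16570, 23633 and 25718 counts. ARPC4 ko was the lowest library and wt the highest, and the ARPC4 ko level was 1.68-fold lower than wt (interval 1.65 to 1.71). Its co-chaperone Dnajb9 (ENSMUSG00000014905, chr12:44205559-44210326, minus strand), which brings Hspa5 to Ire1 and to misfolded chains, had 11.5, 11.2 and 14.6 CPM in the same order, from 279, 278 and 329 counts. Here wt was the highest and the other libraries lay within counting error of each other, and the 1.27-fold lower level in ARPC4 ko had a wide interval (1.08 to 1.501). Sdf2l1 (ENSMUSG00000022769, chr16:17130138-17132383, minus strand), which limits the aggregation of misfolded clients, had 12.7, 14.6 and 21.3 CPM from 309, 363 and 479 counts. It was lowest in ARPC4 ko, 1.68-fold below wt (1.45 to 1.94). Hsp90b1 (ENSMUSG00000020048, chr10:86690209-86705509, minus strand), the ER Hsp90 that matures integrins and Toll-like receptors, had 863.8, 1143 and 1478 CPM from 21000, 28393 and 33236 counts. It followed the order of Hspa5, with ARPC4 ko 1.71-fold below wt (1.68 to 1.74).

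The lectin cycle differed less. Calr (ENSMUSG00000003814, chr8:84841850-84846934, minus strand) had 799.96 CPM in ARPC4 ko, 1008 CPM in Nrf2-EGFP and 959.2 CPM in wt. Canx (ENSMUSG00000020368, chr11:50293961-50325673, minus strand) had 796.2, 1065 and 1027 CPM, and Pdia3 (ENSMUSG00000027248, chr2:121413775-121438687, plus strand) had 788.6, 909.5 and 855.7 CPM in the same order. For all 3 genes ARPC4 ko was the lowest library and Nrf2-EGFP the highest. Against wt, the ARPC4 ko level was 1.20-fold lower for Calr (1.18 to 1.22), 1.29-fold lower for Canx and 1.09-fold lower for Pdia3 (1.06 to 1.11).

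The remaining disulfide isomerases did not move alike. Pdia4 (ENSMUSG00000025823, chr6:47796141-47813430, minus strand) had 178.6 CPM in ARPC4 ko, 220.9 CPM in Nrf2-EGFP and 186.7 CPM in wt, and its ARPC4 ko level was 1.05-fold below wt, with an interval of the ratio from 0.917 to 0.998. Scaled to total gene counts, Pdia4 lay 0.04 log2 units above wt. Pdia6 (ENSMUSG00000020571, chr12:17266545-17284770, plus strand), which also acts on the sensor Ire1, had 233.9, 265.0 and 333.8 CPM, was lowest in ARPC4 ko and lay 1.43-fold below wt (1.38 to 1.48). Pdia6 overlaps Atp6v1c2 on the opposite strand, which had 588, 221 and 285 counts beside 5685, 6585 and 7506 for Pdia6, and the strand setting of the counting is not stated in the labels. Herpud1 (ENSMUSG00000031770, chr8:94386438-94395377, plus strand), which links the Hrd1 ubiquitin ligase to other ERAD proteins, had 43.4, 64.2 and 74.0 CPM from 1055, 1594 and 1665 counts. It was lowest in ARPC4 ko, 1.71-fold below wt (1.58 to 1.84).

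**Figure D2:**
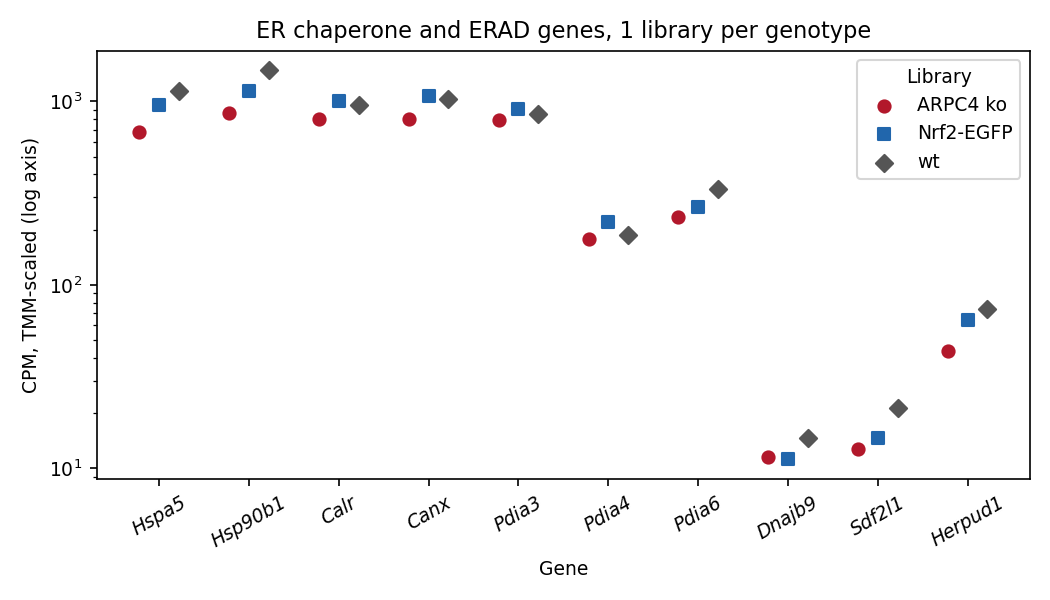
Level of each of the 10 genes in CPM (log axis) in the ARPC4 ko, Nrf2-EGFP and wt libraries, 1 library per genotype. Hspa5, Hsp90b1, Pdia6, Sdf2l1 and Herpud1 step up in that order of libraries, while Calr, Canx, Pdia3 and Pdia4 are highest in Nrf2-EGFP.

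The interval of the ratio lay below 1 for 10 of 10 genes in ARPC4 ko against wt, for 9 of 10 with DESeq2 size factors and for 8 of 10 with total gene counts. It lay below 1 for 34.6% and above 1 for 31.6% of all genes. An interval depends on the count, so a closer background for the higher-count genes is the 2930 genes that reached 100 CPM in any library. Among those 2930 genes the interval lay below 1 for 53.1% and above 1 for 30.5%, and the 1.5-fold rule called 6.18% lower. Dnajb9, Sdf2l1 and Herpud1 stayed below 100 CPM in every library, so that background is not a close one for them. The median log2 fold was -0.44 over the 10 genes and -0.01 over all genes, whose middle 50% ran from -0.24 to 0.25 and whose 5th and 95th percentiles were -0.65 and 0.96. Hspa5, Hsp90b1, Sdf2l1 and Herpud1 lay below that 5th percentile. The summed level of the 10 genes was 4410 CPM in ARPC4 ko, 5652 CPM in Nrf2-EGFP and 6094 CPM in wt, or 0.465%, 0.546% and 0.598% of gene counts. The summed keratinocyte marker level stepped in the same order of libraries. Of the 9 markers that passed the filter, 4 (44.4%) were lower and 0 higher by the 1.5-fold rule in ARPC4 ko against wt. Their median log2 fold was -0.38, and their part in the differences of the 10 genes was not tested.

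**Figure D3:**
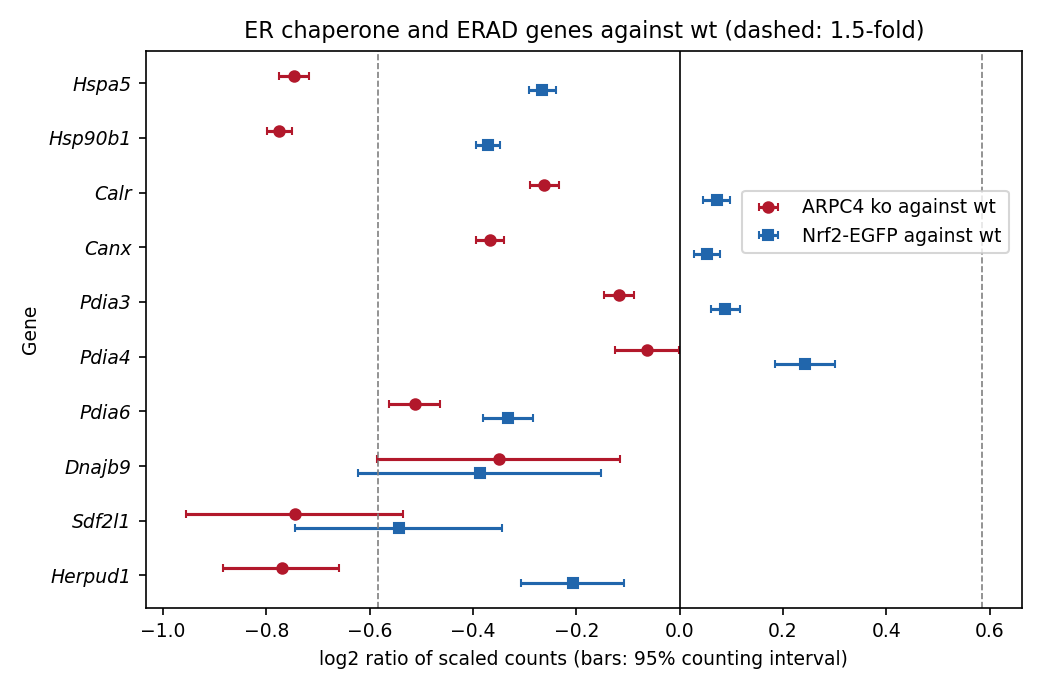
Log2 ratio to wt of each gene in ARPC4 ko (circles) and Nrf2-EGFP (squares), with 95% counting intervals and dashed lines at 1.5-fold. All 10 circles lie left of 0 (that of Pdia4 would lie right of it when scaled to total gene counts), and the squares of Calr, Canx, Pdia3 and Pdia4 lie right of it. Both comparisons use the same wt library.

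In the comparison of Nrf2-EGFP with wt, which asks what goes with the line of that label, the 10 genes split. The wt library is the same as above, so the comparisons with it are not independent. Hspa5, Hsp90b1, Pdia6, Dnajb9, Sdf2l1 and Herpud1 were lower than wt, and the lectin cycle genes Calr, Canx and Pdia3 and the isomerase Pdia4 were slightly higher. Sdf2l1 lay 1.46-fold below wt (1.27 to 1.68), Dnajb9 1.31-fold (1.11 to 1.54), Hsp90b1 1.29-fold (1.27 to 1.31), Pdia6 1.26-fold (1.22 to 1.302), Hspa5 1.20-fold (1.18 to 1.22) and Herpud1 1.15-fold (1.08 to 1.24). Pdia4 had a ratio to wt of 1.18 (1.14 to 1.23), Pdia3 of 1.06 (1.04 to 1.08), Calr of 1.05 (1.03 to 1.07) and Canx of 1.04 (1.02 to 1.06). None of the 10 passed the 1.5-fold rule, which called 5.72% of all genes lower and 8.61% higher, or the 2-fold rule, which called 2.05% lower and 3.57% higher. The interval lay below 1 for 6 genes and above 1 for 4, against 30.8% and 32.1% of all genes and 37.6% and 43.9% of the genes with at least 100 CPM. The median log2 fold was -0.24 over the 10 genes and 0.00 over all genes.

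**Figure D4:**
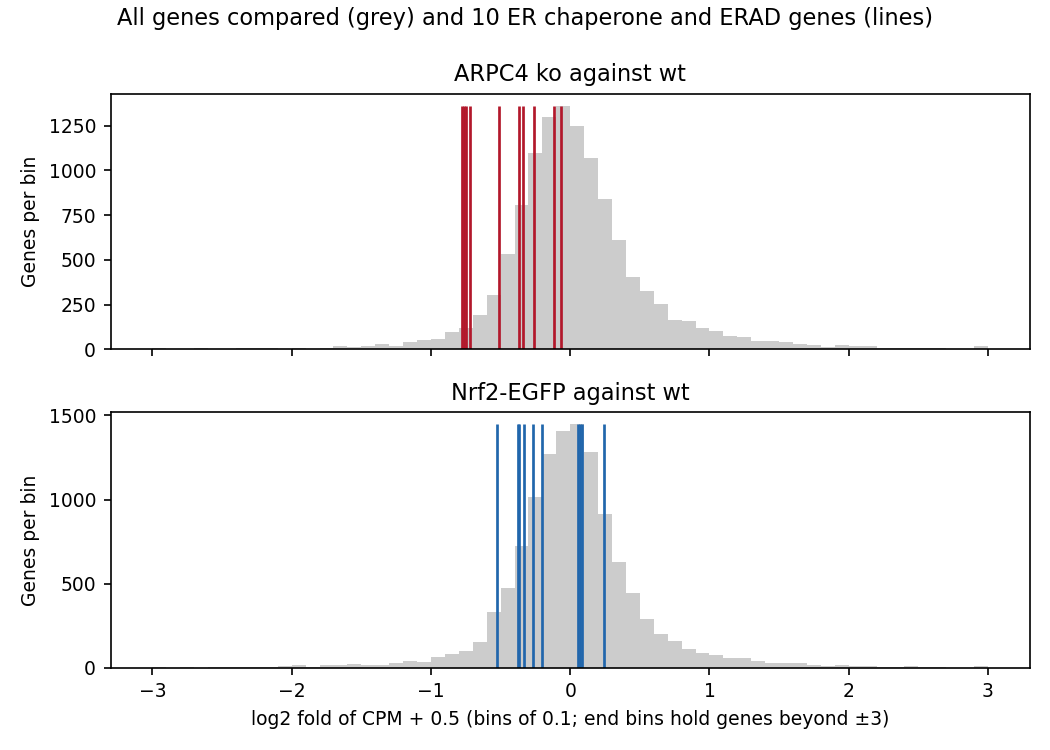
Histograms of the log2 fold of all 11865 compared genes in ARPC4 ko and in Nrf2-EGFP against wt, with lines for the 10 genes (line height has no meaning). The 10 lines lie between -0.77 and -0.06 for ARPC4 ko and between -0.53 and 0.24 for Nrf2-EGFP, and the 4 lowest lines for ARPC4 ko lie outside the 5th to 95th percentile of all genes.

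Set directly against Nrf2-EGFP, ARPC4 ko was lower for 8 of 10 genes by counting intervals. Herpud1 was 1.48-fold lower (1.37 to 1.60), Hspa5 1.40-fold (1.37 to 1.42), Canx 1.34-fold (1.31 to 1.36), Hsp90b1 1.32-fold (1.299 to 1.35), Calr 1.26-fold (1.24 to 1.28) and Pdia4 1.24-fold (1.19 to 1.29). Pdia3 was 1.15-fold lower (1.13 to 1.18) and Pdia6 1.13-fold lower (1.09 to 1.17). The intervals of Dnajb9 (ratio 1.03, 0.866 to 1.22) and Sdf2l1 (1.15-fold lower, 0.985 to 1.34) held 1, so no difference was detectable at this depth. Over all genes the interval lay below 1 for 31.8% and above 1 for 23.6%, and over the genes with at least 100 CPM for 60.5% and 16.04%. None of the 10 passed the 1.5-fold rule, which called 3.38% of all genes lower and 5.85% higher, or the 2-fold rule, with 0.961% lower and 2.01% higher. The summed counts of the 10 genes were 1.38-fold lower in ARPC4 ko than in wt (1.37 to 1.39), 1.08-fold lower in Nrf2-EGFP than in wt (1.07 to 1.09) and 1.28-fold lower in ARPC4 ko than in Nrf2-EGFP (1.27 to 1.29).

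The make-up of the group differed between libraries, which can be read without any scaling. Hspa5 and Hsp90b1 together held 35.0% of the counts of the 10 genes in ARPC4 ko, 37.0% in Nrf2-EGFP and 43.0% in wt. Calr, Canx and Pdia3 together held 54.1%, 52.8% and 46.6% in the same order. Within each class the balance was nearly kept: the ratio of Hspa5 to Hsp90b1 counts was 0.789 in ARPC4 ko, 0.832 in Nrf2-EGFP and 0.774 in wt, and that of Calr to Canx was 1.005, 0.946 and 0.934. Set against their relatives in other compartments, Hspa5 had 0.639, 0.752 and 0.816 counts per count of Hspa8, the cytosolic Hsp70, and 1.02, 1.17 and 0.962 per count of Hspa9, the mitochondrial Hsp70. Hsp90b1 had 0.311, 0.352 and 0.556 counts per count of Hsp90ab1 and 0.912, 1.26 and 1.19 per count of Hsp90aa1, the cytosolic Hsp90 genes. The ER genes were thus lowest relative to the cytosolic forms in ARPC4 ko, and Hspa5 relative to Hspa9 was lowest in wt.

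The counts of the lists below are read against the share of all genes past the 1.5-fold rule, which was 10.8% higher and 6.24% lower in ARPC4 ko and 8.61% higher and 5.72% lower in Nrf2-EGFP. The other genes of ER folding lay on both sides of wt, at shares near or below these. Of 51 further ER folding factors that passed the filter, 5 were higher (9.80%) and 2 lower (3.92%) by the 1.5-fold rule in ARPC4 ko, with a median log2 fold of -0.02, and 4 were higher (7.84%) and 1 lower (1.96%) in Nrf2-EGFP, with a median of 0.17. Txndc16, a thioredoxin-domain protein, had 20.6 CPM in ARPC4 ko, 13.2 CPM in Nrf2-EGFP and 10.4 CPM in wt. Qsox1, a sulfhydryl oxidase, had 32.4, 53.8 and 62.1 CPM, and Creld1, an ER membrane protein, 13.9, 4.02 and 11.7 CPM. Txndc16 was thus highest in ARPC4 ko, 1.99-fold above wt (1.70 to 2.33), Qsox1 was lowest there, 1.92-fold below wt, and Creld1 was lowest in Nrf2-EGFP. The other 4 genes past the rule upward in ARPC4 ko were Cnpy4, with 44.3, 39.2 and 28.5 CPM, and the low-level genes Uggt2, with 1.60, 0.483 and 0.667 CPM, Fkbp14, with 2.26, 1.25 and 0.667 CPM, and P3h1, a collagen prolyl hydroxylase, with 4.07, 2.09 and 1.33 CPM. Those higher in Nrf2-EGFP were the oxidoreductases Txndc5, with 204.9, 274.1 and 180.2 CPM, and Prdx4, with 51.7, 76.7 and 49.5 CPM, and the prolyl isomerases Fkbp7, with 1.69, 1.89 and 1.07 CPM, and Fkbp11, with 12.1, 17.9 and 10.4 CPM. These 4 were each highest in Nrf2-EGFP. Among well-known relatives of the 10 genes, Hyou1, a nucleotide exchange factor of Hspa5, had 218.7, 327.6 and 255.0 CPM. P4hb, the founding disulfide isomerase, had 663.9, 958.6 and 819.8 CPM, and Ero1l, which re-oxidises it, had 84.2, 101.3 and 141.2 CPM. Hyou1 and P4hb had the order of Calr and Canx, and Ero1l that of Hspa5.

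Of 41 further ERAD factors, 1 was higher (2.44%) and 3 lower (7.32%) by the 1.5-fold rule in ARPC4 ko (median log2 fold -0.04). The lower share was near the 6.24% of all genes. In Nrf2-EGFP 0 passed in either direction (median 0.09). The 3 lower genes were Sel1l, the partner of the Hrd1 ligase, with 117.4 CPM in ARPC4 ko, 129.2 CPM in Nrf2-EGFP and 184.3 CPM in wt, Selenos, a selenoprotein of the same complex, with 31.0, 46.7 and 50.03 CPM, and Erlin1, which takes part in degrading inositol trisphosphate receptors, with 68.0, 92.4 and 112.8 CPM. All 3 had the order of Herpud1. The higher gene, Fbxo2, a ubiquitin ligase subunit that binds glycans, was near the filter with 1.11, 0.684 and 0.445 CPM. ARPC4 ko was 1.57-fold below wt for Sel1l (1.496 to 1.65).

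Among 20 sensors and transcription factors of the unfolded protein response, 0 were higher and 5 lower by the 1.5-fold rule in ARPC4 ko (median log2 fold -0.07), and 1 was higher and 2 lower in Nrf2-EGFP (median -0.01). Of the transcription factors known to act on the 10 genes, Xbp1 and Atf6 were lower in both lines, past the rule in ARPC4 ko and not in Nrf2-EGFP. Xbp1 had 36.9 CPM in ARPC4 ko, 61.9 CPM in Nrf2-EGFP and 68.6 CPM in wt, and Atf6 had 45.4, 56.3 and 76.1 CPM. ARPC4 ko was 1.86-fold below wt for Xbp1 (1.71 to 2.02) and 1.68-fold for Atf6, and Nrf2-EGFP was 1.11-fold below wt for Xbp1 (1.03 to 1.19) and 1.35-fold for Atf6. Gene counts do not separate spliced from unspliced Xbp1. Atf6b, the relative of Atf6, had 74.0, 79.9 and 78.0 CPM and was near wt in both lines. The subunits of NF-Y, which binds the CCAAT part of ERSE, differed among themselves: Nfya had 103.9, 81.8 and 69.95 CPM and was lowest in wt, while Nfyb, with 38.3, 37.5 and 46.6 CPM, and Nfyc, with 46.5, 46.3 and 48.9 CPM, were highest there. The genes of the other 2 sensors did not follow Atf6: Ern1, which encodes Ire1, had 58.0, 55.7 and 52.1 CPM, and Eif2ak3, which encodes Perk, had 34.2, 37.1 and 26.9 CPM, each lowest in wt. Ppp1r15a, which reverses the translation block set by Perk, had 36.3, 38.3 and 63.5 CPM and was past the rule downward in both lines. Atf4 had 358.3, 467.9 and 702.1 CPM and Ddit3, which encodes the stress factor Chop, had 18.8, 19.4 and 56.8 CPM. Creb3l2, an ER-bound factor of secretory capacity, went the other way in Nrf2-EGFP, with 52.7, 97.6 and 37.4 CPM.

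Of 20 genes listed for the Perk and Atf4 branch, 17 were lower and 0 higher by the 1.5-fold rule in ARPC4 ko (median log2 fold -1.03), and 11 were lower and 0 higher in Nrf2-EGFP (median -0.65). The list was drawn up with earlier results of these libraries known, so its direction is not independent evidence. Trib3, a pseudokinase that feeds back on Atf4, had 58.9 CPM in ARPC4 ko, 90.3 CPM in Nrf2-EGFP and 228.2 CPM in wt. Vldlr, a lipoprotein receptor, had 13.6, 36.8 and 49.0 CPM, and Stc2, a secreted glycoprotein, had 2.34, 3.34 and 47.4 CPM. Each of these genes was lowest in ARPC4 ko and highest in wt, the order of Hspa5, with larger folds. The folds of the 10 chaperone and ERAD genes against wt did not reach the median of this list in either line.

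Few genes of the steps before and after folding passed the rule. Of 43 genes of ER translocation and N-glycosylation, 1 was higher and 2 lower by the 1.5-fold rule in ARPC4 ko (median log2 fold -0.15), and 0 in either direction in Nrf2-EGFP (median 0.06). The lower genes were Sec61b, a subunit of the translocation channel, with 42.2 CPM in ARPC4 ko, 53.0 CPM in Nrf2-EGFP and 64.8 CPM in wt, and Krtcap2, a subunit of the oligosaccharyltransferase, with 49.9, 56.0 and 84.0 CPM. Tram2, a translocation-associated membrane protein, had 24.8, 22.8 and 16.1 CPM and was lowest in wt. Of 38 genes of ER to Golgi transport, none passed in ARPC4 ko (median -0.06) and 1 was higher in Nrf2-EGFP (median 0.09). It was Kdelr3, a receptor that returns Hspa5 and other KDEL-bearing chaperones to the ER, with 16.3, 22.8 and 12.7 CPM. Its relative Kdelr2 had 171.7, 210.1 and 147.8 CPM and was also highest in Nrf2-EGFP, and Mia2, a cargo export factor, had 109.7, 123.4 and 161.3 CPM.

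Calreticulin, Hspa5 and Hsp90b1 also bind the calcium stored in the ER, which other genes take up, release and sense. Of 15 such genes, 2 were higher (13.3%) and 0 lower by the 1.5-fold rule in ARPC4 ko (median log2 fold -0.05), a share near that of all genes, and 4 were higher (26.7%) and 0 lower in Nrf2-EGFP (median 0.27). Of the inositol trisphosphate receptors, which release calcium from the ER, Itpr1 and Itpr3 were lowest in wt, and Itpr2, with 3.46, 2.25 and 3.60 CPM, was not. Itpr1 had 16.8 CPM in ARPC4 ko, 20.2 CPM in Nrf2-EGFP and 9.29 CPM in wt, and Itpr3 had 344.3, 429.0 and 249.9 CPM. Orai1, the channel that refills the store, had 18.6, 16.7 and 9.74 CPM. Stim2, the store sensor that opens it, had 94.8, 114.9 and 71.4 CPM. Itpr1 and Orai1 passed the rule in both lines, and Itpr3 and Stim2 in Nrf2-EGFP, a difference between the lines that was not tested.

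Chaperones of other compartments were set beside the ER genes. Of 33 cytosolic chaperones, 0 were higher and 2 lower by the 1.5-fold rule in each line, with median log2 folds of -0.25 in ARPC4 ko and -0.15 in Nrf2-EGFP, and 30 of the 33 lay below 0 in ARPC4 ko. Dnajb4, a J-domain co-chaperone, had 18.2 CPM in ARPC4 ko, 15.9 CPM in Nrf2-EGFP and 40.2 CPM in wt. Hspa1a, the inducible Hsp70, had 11.8, 8.29 and 14.1 CPM, and Ptges3, the Hsp90 co-chaperone p23, had 329.1, 406.4 and 496.7 CPM. Of 18 mitochondrial chaperones and proteases, 0 were higher and 2 lower (11.1%) in ARPC4 ko (median -0.33), and 0 passed in Nrf2-EGFP (median -0.13). Hspa9 had 666.1, 816.3 and 1189 CPM, Hspd1, the Hsp60 of the matrix, had 483.4, 632.6 and 791.2 CPM, and the protease Lonp1 had 154.0, 155.4 and 227.6 CPM. Hspa9 in ARPC4 ko was 1.78-fold below wt, so a lower level in ARPC4 ko was also seen for chaperones outside the ER.

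**Figure D5:**
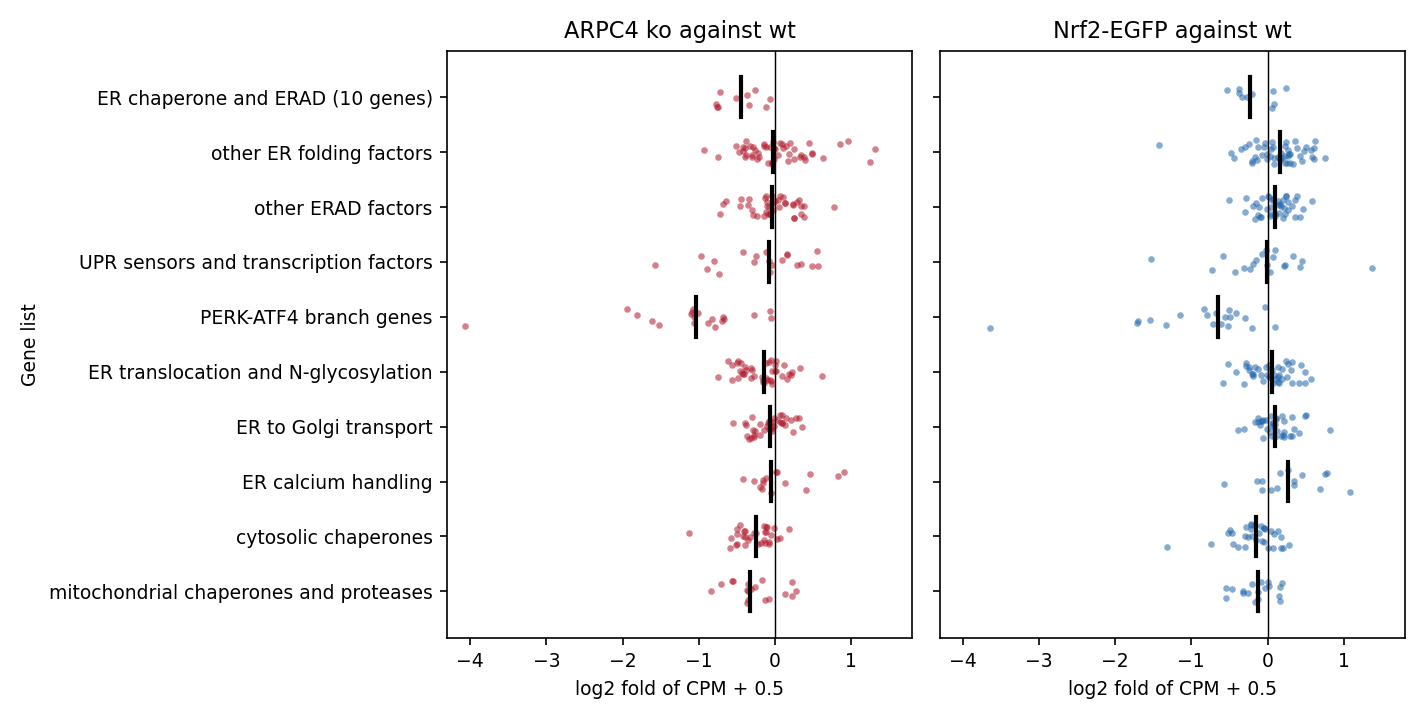
Log2 folds of the genes of each list in ARPC4 ko and in Nrf2-EGFP against wt, 1 point per gene that passed the filter, with the list median marked. The 10 ER chaperone and ERAD genes have medians of -0.44 and -0.24, the further ER folding factors -0.02 and 0.17, and the Perk and Atf4 list -1.03 and -0.65.

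By the pair of log2 folds against wt, the genes nearest to Hspa5 among the 9114 named genes with at least 10 CPM in a library were Ldlrad3, Pck2 and Erlin1, at distances of 0.0189, 0.0208 and 0.0298 log2 units over the 3 libraries. Of the other 9 ER genes, Herpud1 ranked 13th and Hsp90b1 37th in nearness to Hspa5. Pdia6 ranked 238th, Sdf2l1 302nd and Dnajb9 1087th, and the lectin cycle and Pdia4 ranked behind them, from 1634th for Canx to 5146th for Pdia4. The genes with an ERSE or ERSE-II match fell on both sides of this split. Their log2 folds in ARPC4 ko against wt ran from -0.77 to -0.26 (6 genes, median -0.63). Those of the 4 genes without a match ran from -0.72 to -0.06 (median -0.23), so the ranges overlapped. In Nrf2-EGFP against wt the medians were -0.24 with a match and -0.14 without. These values cover the 10 genes only. Among the further ER genes with an ERSE, log2 folds in ARPC4 ko against wt were -0.39 for Creld2 and -0.04 for Dnajc3. They were -0.002 for Syvn1 and 0.38 for Ero1b (counted under its other symbol, Ero1lb), and Derl3 did not pass the filter. The difference by motif was not tested.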

How the data were processed

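Poly(A) RNA was sequenced as 65 bp single reads from stranded libraries, per the labels' protocols. TopHat2 2.1.0, Bowtie 1.1, HTSeq and mm10 are named in the submitters' processing notes, and no source used here states the strand setting. The authors deposited whole-number counts per gene, 1 file per library. Rows that name no gene held 8.22% (ARPC4 ko), 8.48% (Nrf2-EGFP) and 9.08% (wt) of all counts and were left out. Counts were scaled by TMM (edgeR 4.0.16, R 4.3.3; factors 1.06, 0.966 and 0.981). Folds are log2 of CPM + 0.5. Intervals are exact Clopper-Pearson 95% bounds and cover counting error only, not the spread between cultures. Reads carry no molecular identifiers, so each read was counted as separate. With 1 library per genotype no model was tested and no p-value is given. The calling script was run on simulated counts that held counting error only, which cannot show how calls vary between cultures.

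The 10 genes and the gene lists were chosen with earlier results of these data known. All 10 genes are named, with Arpc4, Nfe2l2, the 3 genes nearest Hspa5 and, from each further list, the 3 genes with at least 10 CPM and the largest fold against wt. Hspa8, Hsp90aa1, Hsp90ab1, Hyou1, P4hb, Ero1l, Xbp1, Atf6, Ern1, Eif2ak3, Ppp1r15a, Cnpy4, Uggt2, Fkbp14, P3h1, Txndc5, Prdx4, Fkbp7, Fkbp11, Fbxo2, Stim2, Itpr2, Atf6b, Nfya, Nfyb, Nfyc and the further genes with a promoter match were added after their values were seen. Alternatives were scaling by total counts and by DESeq2 1.42.0 size factors, a filter of 10 CPM and other pseudocounts. No protein sequences were used here.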

Additional observations from a re-analysis of the deposited data

How the results depend on the processing

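The 4 genes past the 1.5-fold rule in ARPC4 ko against wt, and the absence of any of the 10 genes past either rule elsewhere, were the same under every scaling, filter and pseudocount tried. Scaling to total gene counts moved the median log2 fold of the 10 genes to -0.33 (ARPC4 ko against wt) and -0.19 (ARPC4 ko against Nrf2-EGFP). It shifted the median of all genes by 0.10 and 0.12 in those comparisons, and the share of 1.5-fold calls that were higher from 63.5% to 75.01% and from 63.4% to 78.4%. The interval lay below 1 in ARPC4 ko against wt for 8 of the 10 genes with total gene counts and for 9 with DESeq2 size factors, where TMM gave 10. Scaling to total gene counts turned 1 gene, Pdia4 in ARPC4 ko against wt (0.04). A filter of 10 CPM, which leaves 9318 genes, gave 374, 334 and 114 genes past the 2-fold rule and 1149, 945 and 443 past the 1.5-fold rule (ARPC4 ko against wt, Nrf2-EGFP against wt, ARPC4 ko against Nrf2-EGFP), where the filter of 1 CPM gave 802, 666 and 353, and 2025, 1700 and 1095. With that filter the balance in ARPC4 ko against Nrf2-EGFP turned, to 202 higher and 241 lower at 1.5-fold, where the filter of 1 CPM gave 694 and 401, and to 52 higher and 62 lower at 2-fold, where it gave 239 and 114. A pseudocount of 2 CPM gave 454, 362 and 147 past the 2-fold rule and 638 past the 1.5-fold rule in ARPC4 ko against Nrf2-EGFP. Depth limits Dnajb9 and Sdf2l1, with 278 to 479 counts per library. No paired analysis was possible because each genotype had 1 library.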
